A study of Mus musculus with 3 samples.

Results

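The fetal and stress genes of cardiomyocytes described here are 10 genes, chosen by their names in the count table: Nppa, Nppb, Myh6, Myh7, Acta1, Actc1, Tnni1, Ankrd1, Xirp2 and Sprr1a. All 10 were found among the 56748 genes of the table. They were measured by RNAseq in ventricular cardiomyocytes isolated from adult mouse hearts (ACMs), in 3 libraries. The vehicle library came from ACMs cultured with 0.1% BSA, the IL-6 library from ACMs given human interleukin-6 at 10 ng/mL, and the OSM library from ACMs given mouse oncostatin M at 10 ng/mL. In all 3 libraries the cells carried the WT genotype, came from mice 8 to 10 weeks old and were treated for 16 h. RNA was pooled before sequencing and each condition had 1 library, so there was no replicate spread, no test across replicates could be made and no P-value is given. A comparison of these libraries compares the libraries, not the conditions. In isolated cells fewer cells of a type and less RNA per cell cannot be told apart from counts. The study sequenced these cells to find the genes that OSM, a cytokine acting through gp130, changes in cardiomyocytes.

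Before birth, cardiomyocytes of the mouse ventricle express a set of contractile and secreted proteins that is largely replaced after birth. The β-myosin heavy chain gives way to the α form, and slow skeletal troponin I gives way to cardiac troponin I. Skeletal α-actin falls relative to cardiac α-actin, and the atrial natriuretic peptide is withdrawn to the atria. In the overloaded or injured adult heart some of these genes are expressed again, which is known as the fetal gene program, together with genes of mechanical stress such as Ankrd1 and Xirp2. Human and rodent hearts differ in that the adult rodent ventricle contains mainly the α-myosin heavy chain.

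The counts summed to 24939980 fragments with vehicle, 26362446 with IL-6 and 30773001 with OSM, and the 10 genes together took 1.66%, 1.71% and 1.87% of them. Mitochondrial genes took 17.4%, 16.1% and 13.6%. The cells carried the markers of cardiomyocytes. The 7 cardiomyocyte markers summed to between 22400 and 26200 CPM (counts scaled to equal library totals), with none at 0, whereas each of the 6 lists for other cell types (atrial cardiomyocytes, skeletal muscle, fibroblasts, endothelium, macrophages, smooth muscle with pericytes) summed to between 1.24 and 53.7 CPM. A log2 fold change below is the log2 ratio of counts scaled with edgeR's TMM factors, given with a 95% Clopper-Pearson interval. The intervals hold only the error of counting, since each condition had 1 library. Amplified reads that carry no molecular identifier may stem from the same molecule, so the intervals may be too narrow even for that error. Genes were called, as higher or as lower, where the interval lay beyond 2-fold as a whole.

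Of the 10 genes, 3 were called higher with OSM than with vehicle, namely Nppb, Ankrd1 and Sprr1a, and 1 was called lower, Xirp2. The paper had already named Sprr1a among the genes most induced by OSM in its RNAseq. Its call here is therefore not an independent result, and it enters the count and the median of the members. Over all 15537 genes compared, 3.74% were called higher and 5.43% lower. The members' median log2 fold change was 0.60, where that of all compared genes was 0.00. With IL-6, 9 of the genes had the 10 counts over both libraries that were required, and 0 of these were called higher and 0 lower than with vehicle, where 1.77% and 1.74% of all 15472 compared genes were called. The median of these 9 genes was 0.01, again beside 0.00 for all genes. No test across replicates could be made, since there was 1 library per condition. The paper's methods name edgeR for its differentially expressed genes, with thresholds on adjusted P-value and fold change. Between the OSM and IL-6 libraries the called genes were those of OSM against vehicle, 3 higher (4.24% of all 15544 genes) and 1 lower (5.42%), with a median of 0.58. Where a whole interval on 1 side of 1-fold was asked for instead, 7 members were above and 2 below vehicle with OSM (33.4% and 33.1% of all genes), 3 above and 2 below with IL-6 (19.6% and 19.1%), and 6 above and 2 below for OSM against IL-6 (33.2% and 33.2%). By the point estimate alone, 4 members were beyond 2-fold higher and 1 lower for OSM against vehicle (10.1% and 13.1% of all genes), 0 and 0 for IL-6 against vehicle (6.68% and 6.62%), and 4 and 1 for OSM against IL-6 (10.0% and 12.7%), the added member being Tnni1. The vehicle library enters the comparisons of OSM and of IL-6 with vehicle, and the OSM library enters both comparisons of OSM, so their values are given side by side and not as independent results.

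**Figure D1:**
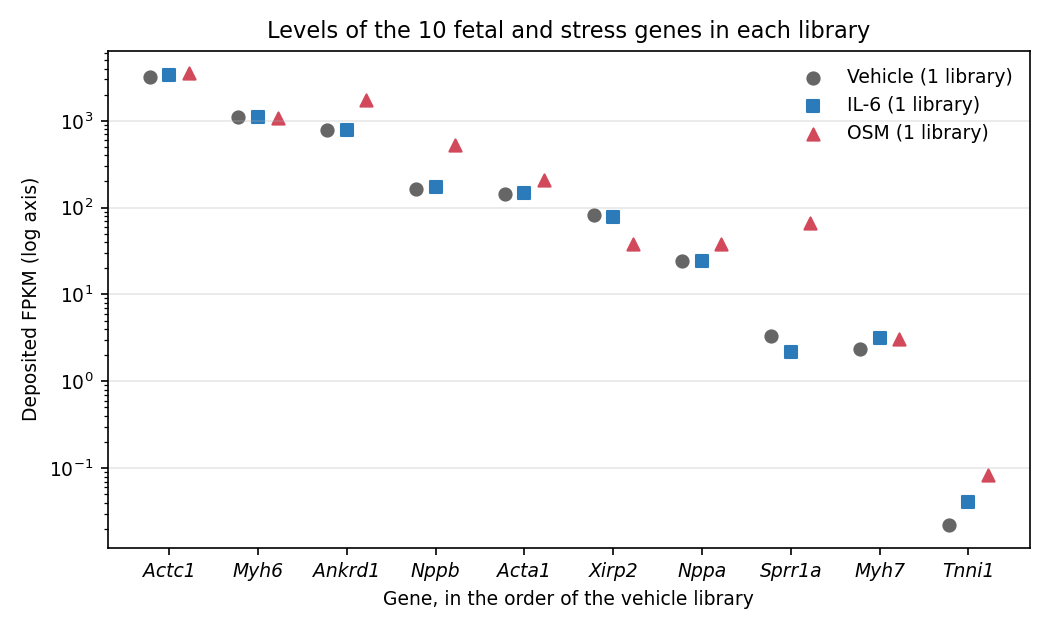
Level of each of the 10 genes in deposited fpkm (fragment counts scaled by gene length and by library), on a log axis; each point is 1 library and there are no error bars. Most genes sit at nearly the same level with vehicle and IL-6, while with OSM the points of Ankrd1, Nppb and Sprr1a lie above and that of Xirp2 below the others.

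On the fpkm scale, which corrects for gene length, the 10 genes spanned levels from 0.022 fpkm (Tnni1) to 3180 fpkm (Actc1) with vehicle. The order with vehicle, from the highest, was Actc1, Myh6, Ankrd1, Nppb, Acta1, Xirp2, Nppa, Sprr1a, Myh7 and Tnni1. Each neighbour in this order differed from the next beyond the counting error, the closest being Nppb over Acta1 with a ratio of 1.12 (95% counting interval 1.08 to 1.17). With IL-6 the order was the same except that Myh7 stood above Sprr1a, by a ratio of 1.44 (1.07 to 1.97). With OSM, Ankrd1 stood above Myh6 by 1.6 (1.59 to 1.61), and Sprr1a moved above Nppa by 1.75 (1.62 to 1.90). Nppa and Xirp2 then had 38.5 and 37.7 fpkm, a ratio of 1.02 (0.958 to 1.09) that does not separate them.

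Sprr1a (ENSMUSG00000050359, chr3:92391259-92393202 on the minus strand of GRCm39) encodes a small proline-rich protein, best known as a cross-linked component of the envelope of skin cells, that is also made by stressed cardiomyocytes and injured neurons. It is shown here with its promoter, since it had the largest log2 fold change of the 10 genes, and so is Xirp2, the gene that was lower. The promoter sequences are RefSeq's, from a table on GRCm38.p6, and were placed on GRCm39 by exact match. Each is printed 5′ to 3′ on the gene's strand and ends before the first base of any exon of the gene in GENCODE M39. Capitals mark matches to the motifs searched, here the AP-1 site (TGANTCA) and the TATA box (TATAAA).
Sprr1a, chr3:92393209-92393438, minus strand: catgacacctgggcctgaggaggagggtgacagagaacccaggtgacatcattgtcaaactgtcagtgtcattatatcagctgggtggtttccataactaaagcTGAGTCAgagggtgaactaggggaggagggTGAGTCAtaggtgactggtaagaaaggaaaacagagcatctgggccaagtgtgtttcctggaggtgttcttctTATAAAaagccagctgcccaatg
Xirp2, chr2:67276096-67276300, plus strand: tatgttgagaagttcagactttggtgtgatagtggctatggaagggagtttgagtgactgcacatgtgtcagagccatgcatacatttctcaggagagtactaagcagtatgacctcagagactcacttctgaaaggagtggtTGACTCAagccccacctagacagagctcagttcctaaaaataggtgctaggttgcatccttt
The Sprr1a sequence holds 2 AP-1 matches, which begin 146 and 116 bases before the RefSeq start, and a TATA box that begins 43 bases before it. The Xirp2 sequence holds 1 AP-1 match, 107 bases before the start, which RefSeq places within the longer Xirp2 gene of the deposited annotation.

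Over the full RefSeq windows, from 250 bases before to 50 after each start, all 10 genes had a promoter in the table and 6 motifs were searched on both strands. The AP-1 site (TGANTCA) was found in 2 of the genes, Sprr1a and Xirp2, and in 7.81% of all 32851 promoters of the same length. The site bound by activated STAT dimers (TTCNNNGAA), the type of factor that gp130 cytokines switch on, was found in 0 of the 10 genes and in 8.30% of all promoters. The M-CAT box (CATTCC), the site of TEAD factors, was found in 5 genes, Acta1, Ankrd1, Myh6, Myh7 and Nppb, and in 14.7% of all promoters. The CArG box, the site of serum response factor, was found in Acta1 and Actc1, 2 of 10, beside 1.63% of all promoters. The GATA site (AGATAA) was found in Ankrd1 and Nppb (11.2% of all promoters), and the TATA box (TATAAA) in 6 genes (13.6%), Acta1, Actc1, Myh6, Nppa, Nppb and Sprr1a. The TATAAA of Actc1 and Myh6 began after the RefSeq start, at bases 34 and 2, and that of Acta1 and Nppa only 7 and 9 bases before it. A member counted if any of its windows matched, and Myh7 and Tnni1 have several, whereas the percentages are of single windows. The M-CAT match of Myh7 was not in all of its windows. The matches in Nppb lay 105 (M-CAT), 84 (GATA) and 31 (TATA) bases before its RefSeq start, and those in Ankrd1 lay 210 and 123 (M-CAT) and 47 (GATA) bases before. GENCODE M39 counts 112 of the 250 bases before the Nppb start and all 250 before the Ankrd1 start as exon of a longer transcript, so neither sequence is printed. A match says only that the letters are there, and a missing match only that these letters are not in this window.

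The natriuretic peptides are hormones that lower blood pressure and volume, secreted by heart muscle under stretch. Nppb, which encodes the B-type peptide (ENSMUSG00000029019, chr4:148070245-148071662, plus strand), had 3193 counts with vehicle, 3618 with IL-6 and 12399 with OSM, or 162, 171 and 532 fpkm. It rose 3.28-fold in the OSM library over vehicle, a log2 fold change of 1.72 (1.66 to 1.77). Against IL-6 the rise was 1.64 (1.58 to 1.69), and IL-6 against vehicle gave 0.08 (0.01 to 0.15), so with TMM factors the OSM library stood apart from the other 2. With scaling to Gapdh the values with OSM were 0.68 against vehicle and 0.01 against IL-6, and Nppb was not called. Gapdh itself had 147 counts with vehicle, 105 with IL-6 and 357 with OSM. Scaling by total counts or by upper-quartile factors gave Nppb 1.65 and 1.74 with OSM against vehicle.

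Nppa encodes the atrial natriuretic peptide (ENSMUSG00000041616, chr4:148085179-148086536, plus strand) and lies beside Nppb on chromosome 4. It had 530 counts with vehicle, 569 with IL-6 and 995 with OSM, or 24.2, 24.3 and 38.5 fpkm. The vehicle and IL-6 libraries were alike within counting error (log2 fold change 0.00, -0.17 to 0.18), and the OSM library was above them by 0.67 (0.51 to 0.82) against vehicle, within 2-fold. The intervals of Nppa and Nppb with OSM did not overlap. In the counts of both genes, Nppb made up 85.8% with vehicle (84.6 to 86.9), 86.4% with IL-6 (85.3 to 87.4) and 92.6% with OSM (92.1 to 93.0), a share that does not depend on the scaling between libraries. Antisense to Nppa lies Gm13054, whose transcripts share 46.7% of the 100-base windows of the Nppa transcript. It had 3 counts in each library, and the strand setting of the counting is not given in the sources used here.

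Among the other genes of natriuretic peptide processing and signaling, 7 of 8 were compared, and with OSM 1 was called higher and 0 lower than with vehicle (3.74% and 5.43% of all genes). Npr1, the receptor for both peptides, was the called gene, and rose from 9 counts with vehicle and 7 with IL-6 to 50 in the OSM library, by 2.23 on the log2 scale against vehicle (1.19 to 3.44). These are low levels, 0.350 fpkm with OSM. The 7 genes had a median of -0.18 with OSM, which turned to 0.19 when the median of genes of similar length was subtracted. With IL-6 their median was -0.16, and 0 were called higher and 0 lower (1.77% and 1.74% of all genes). Against IL-6, 1 was called higher with OSM, again Npr1, and 0 lower (4.24% and 5.42%).

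Myosin heavy chains are the motors of the thick filament, and the adult mouse ventricle runs almost wholly on the α form. Myh6, the α gene (ENSMUSG00000040752, chr14:55179378-55204384, minus strand), had 187212 counts with vehicle, 200746 with IL-6 and 215067 with OSM. At 1100, 1100 and 1070 fpkm, the levels of Myh6 were nearly equal in the 3 libraries, and OSM against vehicle gave a log2 fold change of -0.04 (-0.05 to -0.03). Of all fragments of a library, Myh6 alone took between 0.699% (OSM) and 0.761% (IL-6).

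Myh7, the β gene of fetal and stressed ventricle (ENSMUSG00000053093, chr14:55208141-55232083, minus strand), lies next to Myh6. It had 511 counts with vehicle, 739 with IL-6 and 791 with OSM, or 2.34, 3.17 and 3.07 fpkm. Here both cytokine libraries were above vehicle beyond counting error, with log2 fold changes of 0.43 (0.27 to 0.60) for IL-6 and 0.39 (0.23 to 0.55) for OSM, each within 2-fold. Between the OSM and IL-6 libraries, Myh7 gave -0.04 (-0.19 to 0.10), a difference within counting error. Less the median of genes of similar length it was 0.26, outside that interval. Against vehicle, Myh7 was then at 0.71 with OSM and 0.45 with IL-6. Its share of the counts of both myosin genes was 0.272% with vehicle (0.249 to 0.297), 0.367% with IL-6 (0.341 to 0.394) and 0.366% with OSM (0.341 to 0.393). Thus the α gene outnumbered the β gene in every library, by fpkm 469-fold with vehicle and 348-fold with either cytokine.

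The counts of Myh7 are uncertain, since 23.3% of the 100-base windows of its transcript also occur in transcripts of other genes. Of these windows, 14.1% of the transcript are shared with Mhrt, a noncoding RNA antisense to Myh7, and 11.4% with Myh6. Mhrt itself had 96 counts with vehicle, 126 with IL-6 and 187 with OSM. Against vehicle this gave log2 fold changes of 0.72 (0.36 to 1.09) for OSM and 0.29 (-0.10 to 0.69) for IL-6, and its part in the Myh7 values was not tested. The coding sequences of the myosin genes are 91.7% identical over 5802 aligned bases. Their first 90 coding bases, read from GRCm39, are printed to show where the genes differ at their start, with capitals at the 20 bases that differ, so this stretch is less alike than the coding sequences as a whole.
Myh7, exon 4, chr14:55230241-55230330, minus strand: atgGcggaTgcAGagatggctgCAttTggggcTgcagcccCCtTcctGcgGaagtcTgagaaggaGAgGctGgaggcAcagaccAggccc
Myh6, exon 3, chr14:55202828-55202917, minus strand: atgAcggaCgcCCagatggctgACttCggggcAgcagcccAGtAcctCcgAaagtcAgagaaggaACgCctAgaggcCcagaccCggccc

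The sarcomeric actins form the thin filament. Actc1, the cardiac α-actin (ENSMUSG00000068614, chr2:113877763-113884029, minus strand), had the highest fpkm of the 10 genes in every library, 3180 with vehicle, 3390 with IL-6 and 3520 with OSM. Its counts were 130307, 148426 and 169947, and its log2 fold change was 0.14 (0.13 to 0.15) with OSM and 0.09 (0.08 to 0.10) with IL-6. These are differences of at most 1.1-fold.

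Acta1, the skeletal α-actin that is abundant in fetal heart (ENSMUSG00000031972, chr8:124618508-124621490, minus strand), had 5590 counts with vehicle, 6179 with IL-6 and 9555 with OSM, or 144, 148 and 208 fpkm. The OSM library was above vehicle by 0.53 (0.48 to 0.58), within 2-fold, while IL-6 gave 0.04 (-0.01 to 0.10). Acta1 made up 4.11% of the counts of both actins with vehicle (4.01 to 4.22), 4.00% with IL-6 (3.90 to 4.10) and 5.32% with OSM (5.22 to 5.43). Only the OSM interval lay apart from the others. Of the coding bases of the actin genes, 86.3% are identical, yet no window of 100 bases of either transcript occurs in another gene (0% shared). Their first 90 coding bases are printed for comparison, with capitals at the 14 bases that differ.
Acta1, exon 2, chr8:124620347-124620436, minus strand: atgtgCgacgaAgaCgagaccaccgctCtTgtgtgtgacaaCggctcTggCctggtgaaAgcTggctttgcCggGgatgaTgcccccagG
Actc1, exon 2, chr2:113882423-113882512, minus strand: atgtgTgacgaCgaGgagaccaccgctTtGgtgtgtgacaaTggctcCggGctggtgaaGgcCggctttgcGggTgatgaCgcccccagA

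Troponin I is the inhibitory subunit of the thin filament's calcium switch. Tnni1, its slow skeletal and fetal form (ENSMUSG00000026418, chr1:135707172-135738727, plus strand), had 2 counts with vehicle, 4 with IL-6 and 9 with OSM. These counts are near the floor of 3 counts per library that a count of 0 allows, and the log2 fold change of 1.93 with OSM had an interval from -0.34 to 5.18, so no difference was detectable at this depth. With IL-6 the gene had 6 counts over both libraries and was not compared. Tnni3, the adult cardiac form, had 65637, 73009 and 124455 counts in the same libraries, and a log2 fold change of 0.68 (0.67 to 0.70) with OSM. Tnni1 therefore made up 0.00305% of the troponin I counts with vehicle (0.000369 to 0.011), 0.00548% with IL-6 (0.00149 to 0.014) and 0.00723% with OSM (0.00331 to 0.0137), with intervals that overlap.

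**Figure D2:**
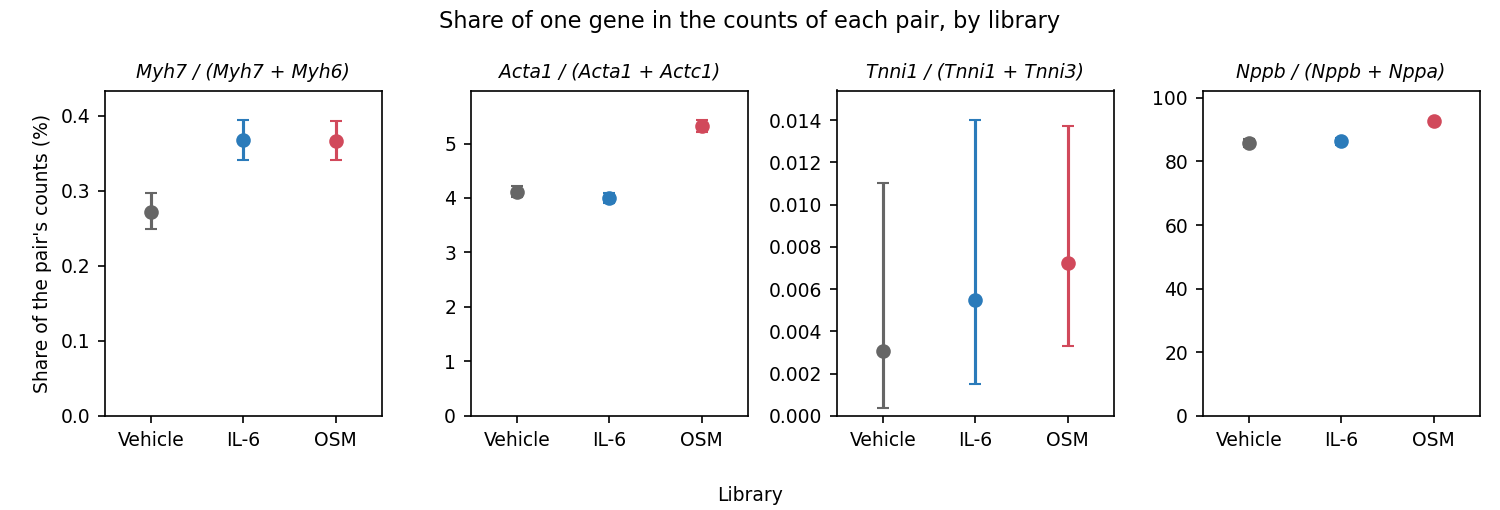
Share of Myh7, Acta1, Tnni1 and Nppb in the counts of each gene and its partner (y axis, percent, from 0), with 1 point per library and bars for the 95% Clopper-Pearson interval. Acta1 and Nppb stand apart with OSM, Myh7 stands higher with both cytokines than with vehicle, and the 3 intervals of Tnni1 overlap.

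Ankrd1 (ENSMUSG00000024803, chr19:36089361-36097499, minus strand) encodes a stretch-responsive ankyrin repeat protein that shuttles between the titin filament and the nucleus. It had 56823 counts with vehicle, 61397 with IL-6 and 148021 with OSM, or 778, 785 and 1720 fpkm. It rose 2.2-fold with OSM. Its log2 fold change was 1.14 (1.13 to 1.15) against vehicle and 1.13 (1.11 to 1.14) against IL-6, while IL-6 against vehicle gave 0.01 (0.00 to 0.03). The call was lost when the median of genes of similar length was subtracted (0.89) and with scaling to Gapdh (0.10, and -0.50 against IL-6). By its abundance the rise was the largest in fragments of the 10 genes, from 0.228% of the vehicle library to 0.481% of the OSM library. A noncoding gene on the opposite strand within Ankrd1 (ENSMUSG00000120701) had 50, 60 and 69 counts.

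Xirp2 (ENSMUSG00000027022, chr2:67004178-67356959, plus strand) encodes an actin-binding protein of the intercalated disc and Z-disc, and is the longest of the 10 genes at 14378 bases in the deposited table. It had 29804 counts with vehicle, 30354 with IL-6 and 16170 with OSM, or 81.9, 77.9 and 37.7 fpkm. It fell with OSM by 1.12 on the log2 scale (-1.15 to -1.10), which is 2.18-fold, and against IL-6 by 1.05 (-1.08 to -1.02). Less the median of genes of similar length, which was -0.66, the change from vehicle was -0.46 and Xirp2 was not called. The interval against IL-6 lay just beyond 2-fold. IL-6 against vehicle gave -0.07 (-0.10 to -0.05).

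Sprr1a, whose promoter is printed above, had 68 counts with vehicle, 48 with IL-6 and 1623 with OSM, or 3.34, 2.2 and 67.4 fpkm. The rise over vehicle was 20.2-fold, and over IL-6 it was 30.7-fold, a log2 fold change of 4.94 (4.52 to 5.38). Between IL-6 and vehicle it gave -0.60 (-1.17 to -0.05), lower with IL-6 beyond counting error. The estimate was 1.52-fold, and the interval reached past 2-fold. The genome-wide rank of its level by fpkm went from 7038 with vehicle to 741 with OSM. The paper also measured Sprr1a by qPCR in replicate ACM preparations. There it reports a rise with OSM in cells of control genotypes and not in cells lacking the kinase JAK1. Of 18 other genes of the skin envelope and keratins found in the table, 2 had enough counts to be compared between OSM and vehicle, of which Sprr2g was called higher and 0 were lower (3.74% and 5.43% of all genes). Sprr2g counted 6 fragments with vehicle, 2 with IL-6 and 43 in the OSM library, a rise over vehicle of 2.60 on the log2 scale (1.36 to 4.12). Less the median of genes of similar length it was 2.05 (0.81 to 3.58), and not called. Between IL-6 and vehicle 2 of them were compared, and Ivl, with 0, 12 and 0 counts, was called higher and 0 were lower (1.77% and 1.74% of all genes). Against IL-6, 3 were compared with OSM, and Sprr2g was called higher and Ivl lower (4.24% and 5.42%).

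**Figure D3:**
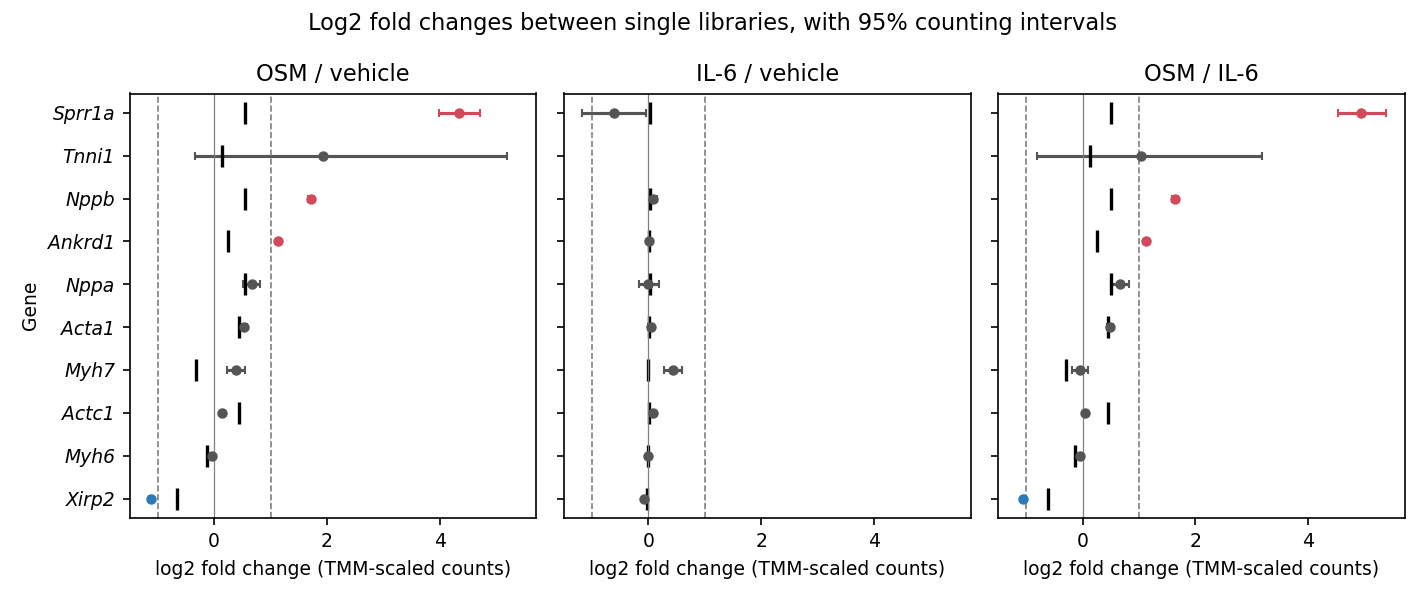
Log2 fold change of each of the 10 genes (x axis, TMM-scaled counts) in the 3 comparisons of single libraries, with bars for 95% counting intervals; coloured points are called beyond 2-fold (dashed lines), and black ticks mark the median of genes of similar length. Sprr1a, Nppb and Ankrd1 lie beyond 2-fold above 0 and Xirp2 below it in both comparisons of OSM, none of the 9 genes drawn does so for IL-6 against vehicle, and Tnni1 has intervals that span 0.

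Gene length moved with these differences in the comparisons of the OSM library. Among 9445 protein-coding genes that averaged at least 100 counts, the median log2 fold change of OSM against vehicle was 0.55 at a median length of 1144 bases and -0.80 at a median length of 15987 bases. For IL-6 against vehicle the medians of the same kind of bins ran from -0.04 to 0.03. The 500 genes nearest in length to Nppa, Nppb and Sprr1a, the shortest of the members, had a median of 0.55 with OSM, those nearest to Acta1 and Actc1 0.44, those nearest to Ankrd1 0.25, those nearest to Myh6 -0.13, those nearest to Myh7 -0.32 and those nearest to Xirp2 -0.66. Set beside these, Nppa (0.67) and Acta1 (0.53) were near the genes of their length, Actc1 (0.14) was below them and Myh7 (0.39) was above them. When the median of genes of similar length was subtracted, Nppb kept 1.17 and Sprr1a 3.79, both still called, and Ankrd1 went to 0.89 and Xirp2 to -0.46, neither of them called. Myh6 turned from -0.04 to 0.09 and Actc1 from 0.14 to -0.30, and the median of the 10 genes went from 0.60 to 0.41 (from 0.58 to 0.21 against IL-6). By that rule 2 of the 10 genes were called higher (3.14% of all genes) and 0 lower (4.72%), and likewise 2 (3.38%) and 0 (4.92%) for OSM against IL-6. For IL-6 against vehicle 0 were higher (1.73%) and 0 lower (1.74%). Scaling to Gapdh, a common reference gene with 147 counts with vehicle, 105 with IL-6 and 357 with OSM, left 1 member higher and 2 lower for OSM against vehicle (0.792% and 35.2% of all genes), 0 and 0 for IL-6 against vehicle (3.94% and 0.737%) and 1 and 5 for OSM against IL-6 (0.463% and 67.1%). With it Nppa (-0.37), Acta1 (-0.51), Actc1 (-0.90) and Myh7 (-0.65) lay below vehicle in the OSM library. Of the 100-base windows of the Gapdh transcript, 85.1% occur in other genes. The part of gene length in the members' values was not tested beyond this subtraction.

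**Figure D4:**
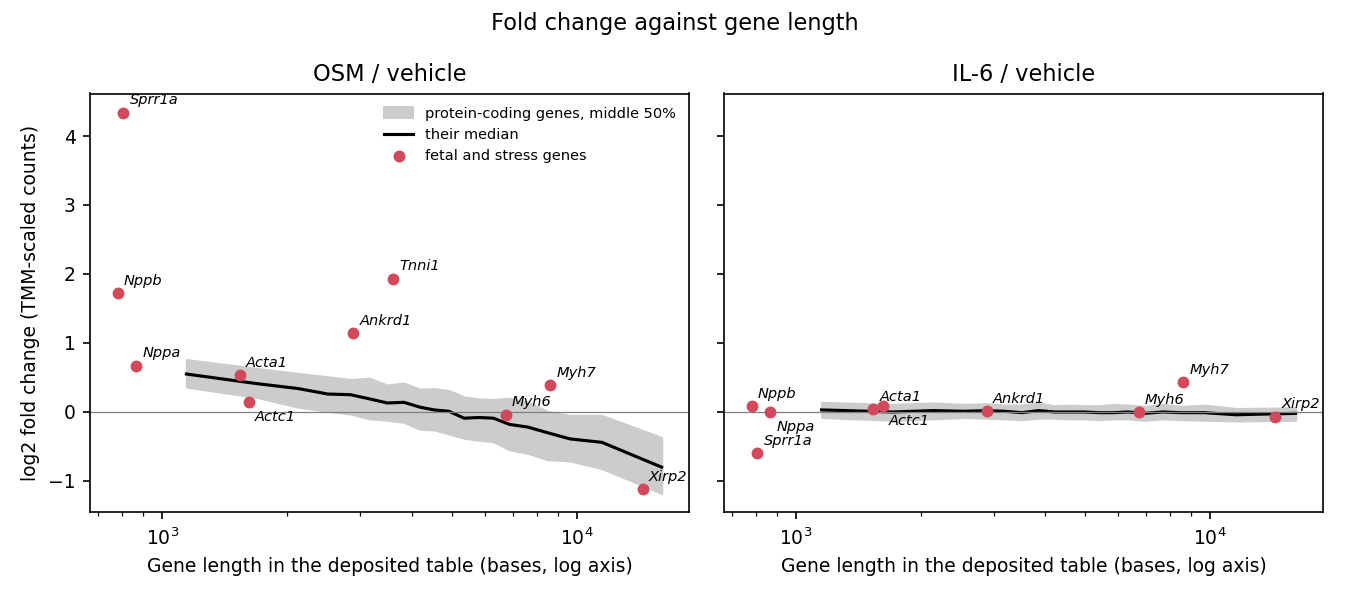
Log2 fold change (y axis, TMM-scaled counts) against gene length in the deposited table (x axis, bases, log axis) for OSM and for IL-6 against vehicle; points are the compared members, the line is the median of protein-coding genes in bins of length and the band their middle 50%. The line falls from 0.55 to -0.80 with OSM and stays between -0.04 and 0.03 with IL-6; with OSM, Ankrd1, Tnni1 and Myh7 lie above the band, Actc1 lies below it and Xirp2 at its lower edge, and Sprr1a and Nppb lie above the line's left end.

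Other genes of cardiomyocyte hypertrophy and dedifferentiation, a list of 24 of which 23 were compared, moved in both directions with OSM. Of the 23, 5 were called higher and 1 lower than with vehicle (3.74% and 5.43% of all genes), with a median log2 fold change of 0.49. Rcan1, a feedback inhibitor of calcineurin, had 16124 counts with vehicle, 15845 with IL-6 and 125047 with OSM, a rise of 2.71 (2.69 to 2.74). Runx1, a transcription factor of dedifferentiating cardiomyocytes, had 129, 105 and 776 counts, a rise of 2.35 (2.08 to 2.63). Both were called again after the subtraction for gene length, at 2.52 and 2.79. Nes, which encodes the intermediate filament protein nestin, rose from 1707 counts with vehicle to 9059 with OSM (2.17, 2.09 to 2.24) and had 1567 with IL-6. Dab2 and Ankrd2, which are outside the rule for named genes, were the other 2 that were higher. Kit, a receptor tyrosine kinase, fell in both cytokine libraries, with 68 counts with vehicle, 18 with IL-6 and 21 with OSM, and was the 1 called lower of 23 with IL-6, where 0 were called higher (1.74% and 1.77% of all genes). After the subtraction for gene length, 4 of the 23 were called higher and 0 lower with OSM against vehicle (3.14% and 4.72% of all genes), with a median of 0.28. Ankrd2 (1.29, 0.78 to 1.83) and Kit (-1.60, -2.38 to -0.88) lost their calls there. Between OSM and IL-6, 4 were called higher and 0 lower (4.24% and 5.42% of all genes).

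The adult sarcomere and calcium handling genes had 20 of 20 members compared, of which 0 were called higher and 2 lower with OSM (3.74% and 5.43% of all genes), with a median of 0.21. The called genes were the longest of the list. Ttn, which encodes the giant spring protein titin, had 18901 counts with vehicle, 20398 with IL-6 and 7191 with OSM, which put its log2 fold change at -1.64 (-1.68 to -1.60). Ryr2, the calcium release channel, had 22606, 23555 and 9264 counts, a log2 fold change of -1.53 (-1.56 to -1.49). For both, the 500 genes nearest in length had a median of -0.78, but these were mostly shorter genes. In the bin of the longest reference genes the median length was 15987 bases, beside 28790 for Ryr2 and 117334 for Ttn. Whether -0.78 holds at such lengths was not tested. After its subtraction 0 of the 20 genes were called higher and 0 lower (3.14% and 4.72% of all genes). Ttn was then at -0.86 and Ryr2 at -0.75, and the median of the list was 0.01. With IL-6, 0 were called higher and 0 lower than with vehicle (1.77% and 1.74% of all genes), and against IL-6 the called genes were again Ttn and Ryr2, 2 lower and 0 higher (5.42% and 4.24%).

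Of 17 transcription factors and cofactors known to act on these genes, 0 were called higher and 1 lower with OSM against vehicle (3.74% and 5.43% of all genes), with a median of -0.24. Mef2c, a MADS box factor of heart development, fell from 1249 counts with vehicle to 597 with OSM (-1.31, -1.45 to -1.16), had 1330 with IL-6 and was not called after the subtraction for gene length (-0.61). With IL-6, 0 were called higher and 0 lower (1.77% and 1.74% of all genes), with a median of 0.02. Between OSM and IL-6, Nfatc4, outside the rule for named genes and at 32 and 4 counts, was called higher and Mef2c lower, 1 gene in each direction (4.24% and 5.42%).

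**Figure D5:**
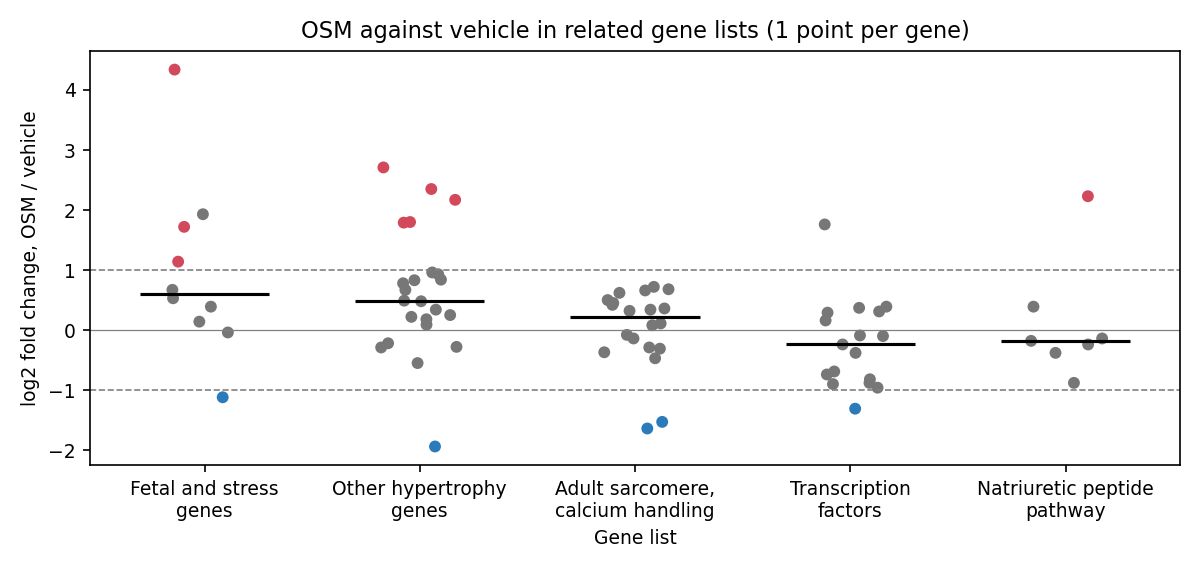
Log2 fold change of OSM against vehicle (y axis, TMM-scaled counts) for the compared genes of 5 lists, with 1 point per gene and a bar at each list's median; coloured points are called beyond 2-fold (dashed lines). The medians are 0.60 for the fetal and stress genes, 0.49 for the other hypertrophy genes, 0.21 for the adult sarcomere and calcium handling genes, -0.24 for the transcription factors and -0.18 for the natriuretic peptide pathway, without the subtraction for gene length.

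For each of the 4 called genes, the 3 genes with the most similar pattern were taken among 9879 genes with at least 100 counts on average, by the Euclidean distance between the log2 fold changes of OSM and of IL-6 against vehicle. Nearest to Nppb were Sertad1 (distance 0.028), Camkk2 (0.0608) and Cd68 (0.081). Those nearest to Ankrd1 were Tec (0.0185), Anxa7 (0.0359) and Cryab (0.0398), the last a small heat shock protein with 56207 counts with vehicle, 59468 with IL-6 and 149051 with OSM, close to the counts of Ankrd1. Xirp2 had Mturn (0.0127), Kif13a (0.0148) and Tnrc6a (0.0292) beside it, and all of them had fewer counts with OSM than with the other libraries. The pattern of Sprr1a was rarer, with Spred3 at 0.110, Rnf122 at 0.380 and Kbtbd11 at 0.439. These distances rest on 3 libraries and describe likeness of values only.

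Markers of other cell types were set beside the members. The macrophage list of 5 genes summed to 23.5 CPM with vehicle, 24.1 with IL-6 and 53.7 with OSM. Of the 4 compared, Cd68, at 382, 448 and 1419 counts, was called higher with OSM than with vehicle and 0 were lower (3.74% and 5.43% of all genes). Less the median of genes of similar length, Cd68 was at 1.15 (0.98 to 1.31) and not called. Ptprc, which marks all white blood cells, was at 0 in all 3 libraries. The fibroblast list of 8 summed to 5.65, 5.46 and 6.37 CPM, and Col1a1, Postn and Tcf21 were at 0 with OSM. Its most abundant member, Dcn, had 49, 48 and 131 counts, a log2 fold change over vehicle of 1.18 (0.69 to 1.68) with OSM that was not called. The skeletal muscle list of 10, which bears on Acta1 and Tnni1, summed to 1.24, 1.33 and 1.88 CPM. Myh1, Myh2, Myh4 and Tnnc2 were at 0 in all 3 libraries. Of the 3 compared between OSM and vehicle, Tnni2 was called higher and 0 were lower (3.74% and 5.43% of all genes). Tnni2 had 3, 7 and 25 counts, and a log2 fold change over vehicle of 2.82 (1.1 to 5.19) with OSM. Less the median of genes of similar length, Tnni2 was at 2.35 (0.64 to 4.72) and not called. The atrial list of 5, which bears on Nppa, summed to 26.3, 30.0 and 34.9 CPM with none at 0. The endothelial list of 5 lay between 32.5 and 34.4 CPM and the smooth muscle and pericyte list of 5 between 31.2 and 34.7. Against IL-6, Cd68 and the smooth muscle gene Cnn1 were called higher with OSM, and the fibroblast gene Col1a2 lower (4.24% and 5.42% of all genes). Cnn1 and Col1a2, outside the rule for named genes, had 8, 0 and 13 and 14, 41 and 6 counts. The part of these lists in the members' values was not tested.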

How the data were processed

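RNA of ACMs was pooled, and 1 library was sequenced per condition. The authors deposited counts of fragments per gene as whole numbers, not normalized, and FPKM made by the authors from those counts and the gene length. The submitters' processing notes name fastp, HISAT2 2.2.1, featureCounts 2.0.6 and edgeR 4.0.16, on mm39, and the paper's methods give other versions of featureCounts and edgeR. Whether the counting used the strand is not given in the sources used here. All columns of values matched a sample (0 unmatched).

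Samples were grouped by their labels. For each pair of libraries edgeR 4.0.16 (R 4.3.3) gave TMM factors from all genes, and a gene was compared if both libraries together held at least 10 of its counts. Clopper-Pearson intervals came from scipy 1.17.1 in Python 3.11.15. The floor of 3 counts per library is 0.120 CPM with vehicle, 0.114 with IL-6 and 0.0975 with OSM. The calling rule was run on simulated counts that held counting error only, with no spread between libraries and no trend with gene length. That run cannot show how the rule fares with either. Shared windows, coding sequences and exons were taken from GENCODE M39 on GRCm39.

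The members and lists were chosen with earlier results of these data known. The genes named are all members, Tnni3, overlapping genes, up to 4 called genes of each list with the largest change with OSM (otherwise the 2 most abundant), and the 3 nearest in pattern to each called member. Not every gene the rule names is reported. The alternatives were other scalings (DESeq2 1.42.0 size factors, upper quartile, total counts, Gapdh), other count minimums, other calling rules, the median of 500 genes of similar length, fpkm shares and, chosen after seeing the data, TMM over genes with at least 10 counts.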

Additional observations from a re-analysis of the deposited data

How the results depend on the processing

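With DESeq2 size factors, upper-quartile factors, total counts, either TMM variant, no minimum count, a minimum of 100 counts, or a limit of 1.5-fold, the numbers of members called were those given above. Calling by the point estimate alone added Tnni1 as higher with OSM. Calling any whole interval on 1 side of 1-fold gave 7 higher and 2 lower for OSM against vehicle, 3 and 2 for IL-6 against vehicle, and 6 and 2 for OSM against IL-6. Subtracting the median of genes of similar length left 0 members lower in both comparisons of OSM. Scaling to Gapdh gave 1 higher and 2 lower for OSM against vehicle and 1 and 5 for OSM against IL-6. Under it the log2 fold change of Ankrd1, OSM against IL-6, reversed to -0.50, and all fold changes of OSM against vehicle shift by the 1.04 of Gapdh itself. By fpkm, the share of Acta1 was 4.32%, 4.2% and 5.59%, that of Myh7 0.213%, 0.287% and 0.286%, and that of Nppb 87.0%, 87.6% and 93.2% with vehicle, IL-6 and OSM. Of 230 alternative values of single members, 212 kept their sign and 31 moved by over 1.5-fold, 29 of them with scaling to Gapdh and 2 with the subtraction for gene length. No paired analysis was possible because each condition had 1 library. Depth limits Tnni1, whose counts were 2, 4 and 9.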
